A study of Mus musculus with 84 samples.

Results

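The genes described here lie on mouse chromosome 9 with a start between 40000001 and 60000000 in build mm10. They were the 240 genes of 43629 in the count table that start in this interval, have a total of 84 or more reads over 84 libraries, and are not among 15 genes left out by name. The interval holds 360 genes in the table, of which 105 fell below that total, 33 of them with no read at all. The genes just inside the limit were Gm9830 and Gm36940 with a total of 89 reads each and 4833428L15Rik with 92, and those just outside were Htr3b with 80, AY074887 with 72 and Nr2e3 with 68. Of the 240 genes, 201 are protein coding and 204 passed the filter on low counts and were tested. The 36 that were not tested had totals of 89 to 560 reads. The interval was chosen by the measured difference between the lines, its adjusted p-values and fold changes, so counts of genes that differed between the lines are a description of the choice, and nothing is read from them.

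The tissue was ventrolateral striatum, cut out by hand and sequenced as bulk RNA, and came from 84 adult mice labelled S4 of 2 lines, SOT and NOT, bred by selection on both ethanol preference and withdrawal. The labels call 44 mice High Drinker (21 females and 23 males) and 40 mice Low Drinker (18 females and 22 males), and do not say which of the names SOT and NOT each belongs to. All mice were naive, with no treatment in either group. Library totals ran from 22190363 to 41300401 reads in genes. The labels do not say whether mice shared parents, so p-values treat each animal as independent. Title numbers fall in 3 sets of 48, 30 and 6 libraries, called sheet sets here, with 30, 11 and 3 High Drinker and 18, 19 and 3 Low Drinker libraries, and all main fits hold a term for the set.

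In lines bred from a mixed population, genes that lie close together on a chromosome tend to be inherited as a block. An allele that acts on its own gene can change that gene's transcript and leave the gene beside it as it was. This stretch of chromosome 9 holds genes of unrelated function, among them cell adhesion molecules, mitochondrial enzymes, apolipoproteins and genes of DNA repair.

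Bco2, Zw10, Alg9 and Nxpe4 are the genes by which the interval was labelled. Their promoters are shown so that a reader can see where transcription of each starts, as RefSeq gives it in build GRCm38.p6, the same assembly as mm10. Each sequence runs from 250 bases before the start to 50 bases after it, 5′ to 3′ on the strand of the gene, with matches to 4 short motifs on either strand in capitals. The motifs were the CCAAT box (CCAAT), the GC box (GGGCGG), the TATA element (TATAAA) and an E-box (CACGTG), and none of the matches shown overlaps that of another motif.
Bco2 (chr9:50555089-50555388, minus strand): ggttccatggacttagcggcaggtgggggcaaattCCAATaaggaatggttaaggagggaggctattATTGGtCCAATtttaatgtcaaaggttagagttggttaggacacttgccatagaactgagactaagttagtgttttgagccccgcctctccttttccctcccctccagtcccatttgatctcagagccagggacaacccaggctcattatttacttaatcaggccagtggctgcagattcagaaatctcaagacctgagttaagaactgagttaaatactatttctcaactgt
Zw10 (chr9:49055331-49055630, plus strand): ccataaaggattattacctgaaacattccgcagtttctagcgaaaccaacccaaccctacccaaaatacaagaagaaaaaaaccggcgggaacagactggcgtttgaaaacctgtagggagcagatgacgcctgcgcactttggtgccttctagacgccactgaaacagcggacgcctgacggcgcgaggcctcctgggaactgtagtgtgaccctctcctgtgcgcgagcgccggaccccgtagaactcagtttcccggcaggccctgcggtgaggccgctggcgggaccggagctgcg
Alg9 (chr9:50774975-50775274, plus strand): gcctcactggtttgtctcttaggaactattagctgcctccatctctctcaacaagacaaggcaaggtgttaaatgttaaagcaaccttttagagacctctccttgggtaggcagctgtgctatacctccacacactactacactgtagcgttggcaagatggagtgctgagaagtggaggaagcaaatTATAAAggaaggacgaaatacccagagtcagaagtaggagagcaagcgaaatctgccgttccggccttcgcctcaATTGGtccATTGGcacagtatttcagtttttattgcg
Nxpe4 (chr9:48361791-48362090, plus strand): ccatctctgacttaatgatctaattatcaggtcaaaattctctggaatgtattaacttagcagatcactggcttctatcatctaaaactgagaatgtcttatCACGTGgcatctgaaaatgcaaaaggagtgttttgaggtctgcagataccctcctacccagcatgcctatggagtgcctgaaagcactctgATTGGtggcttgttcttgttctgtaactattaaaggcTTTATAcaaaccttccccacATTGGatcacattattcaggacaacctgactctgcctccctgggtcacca
Bco2 has 2 promoter entries, and the one shown is the nearer to the start of the gene in the count table, 43 bases from it. This Bco2 promoter held 3 CCAAT matches and 2 CG pairs. Zw10 held none of the 4 motifs and 24 CG pairs, against a median of 7 over 32851 promoters of the same length. Alg9 held 2 CCAAT matches and 1 TATAAA match, and its entry starts 206 bases from the start of the gene in the count table. Nxpe4 held 2 CCAAT matches, 1 TATAAA match and 1 CACGTG match. Over all promoters, 37.4% held a CCAAT box, 35.7% a GC box, 13.6% this TATA element and 7.15% this E-box. A match is a run of letters and was not tested as a binding site. Entries were found for 166 of the 240 genes.

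Levels are given as CPM, a read count scaled to a fixed library total after TMM normalization, and a line difference is a log2 fold change, High Drinker minus Low Drinker, ± SE. It comes from edgeR's quasi-likelihood test with sheet set and sex in the model. Adjusted p-values are Benjamini-Hochberg values over all 17071 tested genes of the genome, and a gene is called at 0.05. Of the 204 tested genes, 33 were called, 17 higher and 16 lower in High Drinker, which is 16.2%. Over the genome 3.94% were called, 1.86% higher and 2.08% lower. Without adjustment, 65 genes or 31.9% had a p under 0.05, against 18% of the genome. The median line difference over the 204 genes was 0.00045 on the log2 scale and 0.0013 over all genes, on values that TMM scaling centres near 0. The median size of the difference, without its sign, was 0.07 against 0.06 over all genes.

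**Figure D1:**
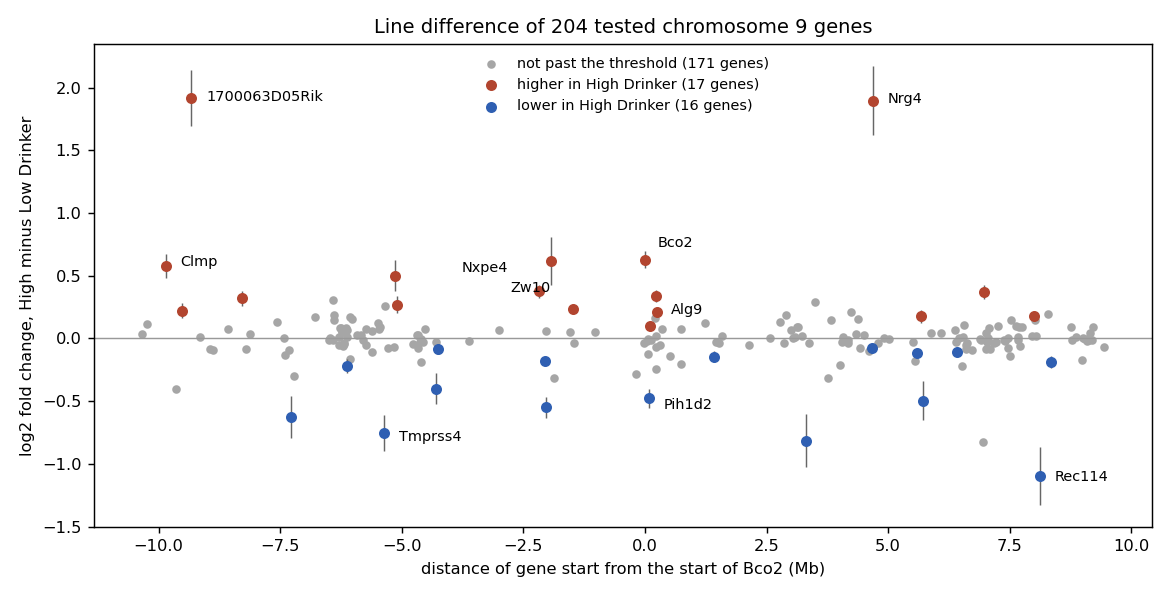
Line difference (log2 fold change, High minus Low Drinker, vertical axis) of the 204 tested genes against the distance of each gene's start from that of Bco2 in Mb (horizontal axis), with bars of 1 SE on the 33 called genes. The 17 genes higher and 16 lower in High Drinker lie along the whole interval, among genes near 0.

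Called genes were spread over the interval and stood beside genes that did not pass. By steps of 2 Mb, 5 of 10 tested genes were called from 48 to 50 Mb and 6 of 22 from 50 to 52 Mb. From 44 to 46 Mb, the step with the most genes, 4 of 48 were called, and from 52 to 54 Mb 1 of 16. Both directions occurred in 7 of the 10 steps. The size of the 33 differences ran from 0.07 to 1.92 on the log2 scale with a median of 0.34, and 3 exceeded 1. The values of the lines overlapped in all 33, as in all 17071 tested genes (0% without overlap). All 33 had the same sign in the 2 larger sheet sets, and the 29 that could be fitted in each sex had the same sign in females and males. In the kits used strand is not marked, and 12 of the 33 share exon sequence with a gene on the opposite strand, whose reads cannot be separated.

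Bco2 (ENSMUSG00000032066, chr9:50533087-50555181) encodes a mitochondrial oxygenase that cleaves carotenoids. Its level in High Drinker ran from 1.88 to 5.0 CPM with a median of 3.49, and in Low Drinker from 1.44 to 3.51 CPM with a median of 2.09. The lines overlapped, but 21 of 44 High Drinker mice lay above the highest Low Drinker mouse and 42 of 44 above the Low Drinker median. Means were 3.48 ± 0.712 CPM (SD, n = 44) and 2.23 ± 0.465 CPM (SD, n = 40), and the line difference was 0.63 ± 0.07 with an edgeR adjusted p of 3.03e-10. It was 0.58 and 0.70 within sheet sets 1 and 2, and 0.63 in females and 0.64 in males.

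Zw10 (ENSMUSG00000032264, chr9:49055581-49078772), which acts at the kinetochore and in traffic between endoplasmic reticulum and Golgi, ranged from 17.2 to 24.9 CPM in High Drinker with a median of 22.2. In Low Drinker it ranged from 15.3 to 23.8 CPM with a median of 18.1. All but 1 of the 44 High Drinker mice lay above the Low Drinker median, and 5 lay above every Low Drinker mouse. The means of 21.8 ± 1.79 CPM (SD, n = 44) and 18.5 ± 1.94 CPM (SD, n = 40) gave a line difference of 0.24 ± 0.03 and an edgeR adjusted p of 9.78e-08. Zw10 thus had a small difference and a narrow spread.

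Alg9 (ENSMUSG00000032059, chr9:50775019-50843542) adds mannose to the lipid-linked precursor of N-glycans. It ran from 14.9 to 23.5 CPM in High Drinker with a median of 19, and from 14 to 21.4 CPM in Low Drinker with a median of 16.1. The overlap was wide at the edges, while 42 of 44 High Drinker mice exceeded the Low Drinker median. The means were 19 ± 1.75 CPM (SD, n = 44) and 16.4 ± 1.39 CPM (SD, n = 40), a line difference of 0.21 ± 0.03 with an edgeR adjusted p of 4.11e-07. First exons of Alg9 overlap those of 1110032A03Rik on the opposite strand, a protein coding gene of little known function. That gene, named after its values were seen, stood at 26.1 ± 3.19 CPM (SD, n = 44) in High Drinker and 20.4 ± 3.50 CPM (SD, n = 40) in Low Drinker, with a line difference of 0.34 ± 0.05 and an edgeR adjusted p of 4.16e-07.

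Nxpe4 (ENSMUSG00000044229, chr9:48362041-48400025) belongs to a family with neurexophilin and PC-esterase domains. High Drinker values ran from 7.59 to 13.4 CPM with a median of 10.5, and Low Drinker values from 5.73 to 11.7 CPM with a median of 7.91. At the top, 11 High Drinker mice exceeded every Low Drinker mouse, and at the bottom 17 Low Drinker mice lay below every High Drinker mouse. Means were 10.5 ± 1.57 CPM (SD, n = 44) and 8.13 ± 1.37 CPM (SD, n = 40), a line difference of 0.38 ± 0.05 with an edgeR adjusted p of 4.37e-07. Per length, as FPKM (CPM divided by the gene's exon length in kilobases), Bco2 was the scarcest of these genes at 1.36 FPKM, followed by Nxpe4 at 2.96, Alg9 at 4.57 and Zw10 at 6.99. In the same unit Pkm, the pyruvate kinase gene and the highest of the 240, stood at 509.

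**Figure D2:**
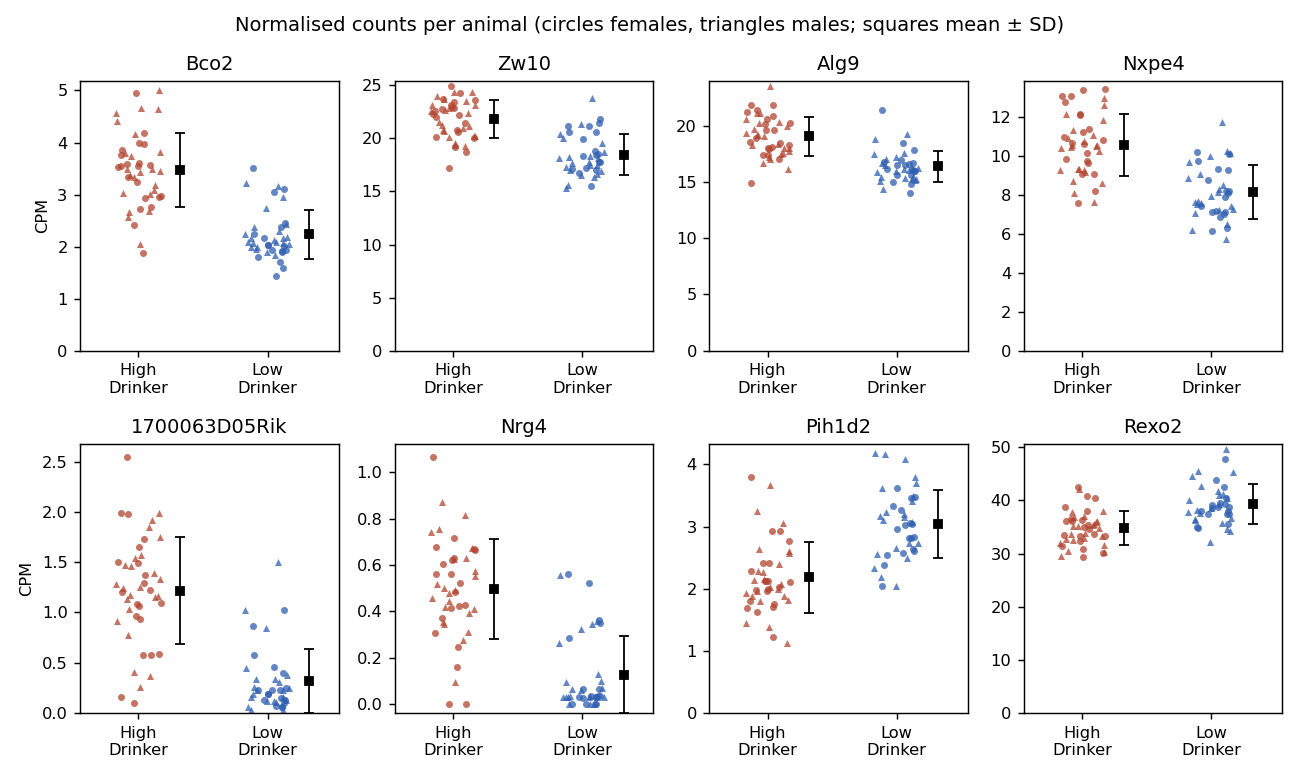
CPM (vertical axes, each with its own scale) of 8 genes in each of 44 High and 40 Low Drinker mice, with the mean and SD beside the points. Bco2, Zw10, Alg9, Nxpe4, 1700063D05Rik and Nrg4 lie higher in High Drinker and Pih1d2 and Rexo2 lower, with overlap in all 8.

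The 2 largest differences belonged to scarce transcripts under 1 CPM on average, below the level set for naming and chosen after their values were seen. Nrg4 encodes a neuregulin, a growth factor of the EGF family that binds the receptor ErbB4. It ran from 0 to 1.07 CPM in High Drinker with a median of 0.497, and from 0 to 0.559 CPM in Low Drinker with a median of 0.0337. No read was found in 2 High and 7 Low Drinker libraries, and 18 High Drinker mice lay above every Low Drinker mouse. The lines differed by 1.90 ± 0.28 with an edgeR adjusted p of 1.26e-06. Its exons overlap Fbxo22 on the opposite strand, which was lower in High Drinker. The non-coding RNA 1700063D05Rik (chr9:41206137-41217627) ran from 0.0941 to 2.55 CPM in High Drinker with a median of 1.24, and from 0.0320 to 1.5 CPM in Low Drinker with a median of 0.227. Its line difference was 1.92 ± 0.22 with an edgeR adjusted p of 3.53e-09, and 11 High Drinker mice exceeded every Low Drinker mouse. In both genes most Low Drinker mice lay near 0 and a few reached the level of the High Drinker mice. Among called genes under 1 CPM, Rec114, which acts in meiotic recombination, had the largest lower value, with medians of 0.135 CPM in High and 0.357 CPM in Low Drinker, a line difference of -1.1 ± 0.23 and an edgeR adjusted p of 0.00129.

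Adhesion molecules of the immunoglobulin superfamily had 15 tested members, of which 2 were higher, 1 lower and 12 not called, with a median line difference of 0.07. Dscaml1, a neuronal adhesion molecule, ran from 33.3 to 94.0 CPM in High Drinker with a median of 66.3 and from 30.5 to 104 CPM in Low Drinker with a median of 57.6. This gave a line difference of 0.27 ± 0.07 with an edgeR adjusted p of 0.00801, and the highest mouse was a Low Drinker. Without a term for sheet set the difference was 0.19 with an adjusted p of 0.118. Cd276, which encodes the immune regulator B7-H3, had medians of 16.2 and 14.6 CPM and a line difference of 0.18 ± 0.04 with an edgeR adjusted p of 0.00246. Neo1, the netrin and repulsive guidance receptor neogenin, had medians of 128 CPM in High and 149 CPM in Low Drinker. Its line difference was -0.19 ± 0.05 with an edgeR adjusted p of 0.0151, and 39 of 44 High Drinker mice lay below the Low Drinker median. The 3 most abundant members were not called: Thy1, a surface glycoprotein of neurons, had a line difference of -0.01 ± 0.04, Lingo1 of 0.04 ± 0.11 and Ncam1 of 0.05 ± 0.02. Clmp, an adhesion molecule of the same superfamily, was written in the list of membrane traffic genes. Its difference was the second largest among called genes over 1 CPM. Clmp ran from 14.9 to 60.7 CPM in High Drinker with a median of 38.4 and from 14.3 to 54.0 CPM in Low Drinker with a median of 23.5, with a line difference of 0.58 ± 0.09 and an edgeR adjusted p of 1.27e-05. All but 1 High Drinker mouse lay above the Low Drinker median.

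Among 12 tested genes for mitochondrial enzymes and import, 2 were higher and 2 lower. Besides Bco2, the higher gene was Dlat, the acetyltransferase subunit of the pyruvate dehydrogenase complex. It ran from 69.6 to 107 CPM in High Drinker with a median of 90.2 and from 66.7 to 97.7 CPM in Low Drinker with a median of 85.6, a line difference of 0.10 ± 0.03 with an edgeR adjusted p of 0.0209. The lower genes were Rexo2, a nuclease that degrades short RNA, and Fdx1, a ferredoxin that carries electrons to mitochondrial enzymes. Rexo2 ran from 29.5 to 42.6 CPM in High Drinker with a median of 35 and from 32.1 to 49.7 CPM in Low Drinker with a median of 38.7. The line difference of Rexo2 was -0.18 ± 0.03 with an edgeR adjusted p of 6.22e-05, and 39 of 44 High Drinker mice lay below the Low Drinker median. Fdx1 had medians of 7.37 and 7.87 CPM and a line difference of -0.15 ± 0.04 with an edgeR adjusted p of 0.0386. That call was lost without the sheet set term (adjusted p of 0.147) and without 5 libraries that stood apart in earlier work on these data (0.0839). The tricarboxylic acid cycle gene Idh3a and the thiolase gene Acat1 were more abundant and not called, with line differences of -0.02 ± 0.03 and 0.01 ± 0.02.

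Lipid transport and sterol metabolism had 8 tested members, 2 higher and 1 lower, with Bco2 counted here as well. Sc5d, which encodes the sterol desaturase late in cholesterol synthesis, ran from 25.4 to 55.6 CPM in High Drinker with a median of 43.1 and from 19 to 52.5 CPM in Low Drinker with a median of 33.8. For Sc5d the lines differed by 0.32 ± 0.06 with an edgeR adjusted p of 0.000174, and 40 of 44 High Drinker mice exceeded the Low Drinker median. Apoa1, the main protein of high density lipoprotein, was under 1 CPM with medians of 0.364 and 0.457 CPM. Its line difference was -0.40 ± 0.12 with an edgeR adjusted p of 0.0477, and it was not called in 3 of 8 alternatives. The sorting receptor gene Sorl1, the sterol transfer gene Gramd1b and the acyl-CoA synthetase gene Acsbg1 had line differences of 0.08 ± 0.08, 0.12 ± 0.05 and 0.02 ± 0.03, none of them called.

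Of 18 tested genes for DNA repair, chromatin and cell division, 2 were higher and 0 lower, and 14 had a positive sign. Besides Zw10 the higher gene was Rpp25, a subunit of the ribonucleases P and MRP, which process RNA rather than DNA. It ran from 8.45 to 18.8 CPM in High Drinker with a median of 14.4 and from 8.41 to 16.1 CPM in Low Drinker with a median of 10.9. The line difference was 0.37 ± 0.05 with an edgeR adjusted p of 1.26e-06, with 42 of 44 High Drinker mice above the Low Drinker median. The histone methyltransferase gene Kmt2a was not called at 0.08 ± 0.05. Phldb1, written in this list though it is no DNA repair or chromatin gene, was not called at 0.03 ± 0.06. Among 9 tested genes for glycosylation and sugar enzymes, Alg9 and Nxpe4 were higher and 0 lower. Pkm, Man2c1, a cytosolic mannosidase, and Hexa, a lysosomal hexosaminidase, had line differences of -0.01 ± 0.02, -0.09 ± 0.04 and 0.00 ± 0.03 and were not called.

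Ubiquitin ligases and proteases had 19 tested members, 1 higher and 2 lower. Fbxo22, a substrate receptor of a ubiquitin ligase, ran from 30.4 to 40.1 CPM in High Drinker with a median of 34.9 and from 31.4 to 43.2 CPM in Low Drinker with a median of 37.4. Its line difference of -0.07 ± 0.02 was the smallest of the 33, with an edgeR adjusted p of 0.0364 that became 0.0892 without the 5 libraries. Tmprss4, a membrane serine protease under 1 CPM, had medians of 0.345 and 0.550 CPM, a line difference of -0.75 ± 0.15 and an edgeR adjusted p of 0.000422. Ubash3b, which encodes a tyrosine phosphatase that binds ubiquitin, had medians of 37.1 and 32.3 CPM and a line difference of 0.22 ± 0.06 with an edgeR adjusted p of 0.0234, a call lost without the sheet set term. The protease gene Bace1 and the ubiquitin ligase genes Arih1 and Ube4a had line differences of 0.03 ± 0.04, 0.01 ± 0.04 and 0.06 ± 0.04, none of them called.

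In the list of kinases and phosphatases 1 of 12 tested genes was called. Peak1, a pseudokinase scaffold, ran from 52.3 to 89.1 CPM in High Drinker with a median of 71.5 and from 35.2 to 86.8 CPM in Low Drinker with a median of 59.3. Its line difference was 0.18 ± 0.05 with an edgeR adjusted p of 0.0350, and 0.14 with an adjusted p of 0.120 without the 5 libraries. Peak1os, transcribed from the opposite strand within it, had medians of 0.186 and 0.258 CPM and a line difference of -0.49 ± 0.15 with an edgeR adjusted p of 0.0466. Peak1os was not called in 3 of 8 alternatives. The salt-inducible kinase gene Sik3 had 0.07 ± 0.05 and was not called, and the list also holds Pafah1b2 and Parp6, which are neither kinases nor phosphatases, with -0.03 ± 0.03 and -0.02 ± 0.02.

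Membrane traffic and vesicle genes had 17 tested members, of which Clmp was higher and Tspan3 and Ccdc84 were lower. Tspan3, a tetraspanin and the most abundant of the 33 called transcripts, ran from 234 to 309 CPM in High Drinker with a median of 275 and from 257 to 333 CPM in Low Drinker with a median of 292. Its line difference was -0.11 ± 0.02 with an edgeR adjusted p of 0.000184, and 38 of 44 High Drinker mice lay below the Low Drinker median. Ccdc84, a coiled-coil protein of the minor spliceosome and so no vesicle gene, had medians of 10.6 and 12.5 CPM and a line difference of -0.22 ± 0.05 with an edgeR adjusted p of 0.00704. Its exons overlap a ribosomal protein gene on the opposite strand that is not described here. Scamp5, a synaptic vesicle protein gene, Sorl1 and Dmxl2, which acts in acidification of vesicles, had line differences of -0.01 ± 0.03, 0.08 ± 0.08 and 0.15 ± 0.06 and were not called.

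Among 11 tested genes for ion channels and transmembrane transport, 1 was higher and 1 lower. Fxyd2, a regulatory subunit of the sodium pump, ran from 1.68 to 8.88 CPM in High Drinker with a median of 4.52 and from 1.47 to 7.66 CPM in Low Drinker with a median of 2.80. The line difference of Fxyd2 was 0.50 ± 0.13 with an edgeR adjusted p of 0.00985, and it was 0.22 within sheet set 1 and 0.88 within sheet set 2. Sln, which encodes the calcium pump inhibitor sarcolipin and lay under 1 CPM, had medians of 0.190 and 0.255 CPM and a line difference of -0.81 ± 0.21 with an edgeR adjusted p of 0.0146. Its highest value, 3.20 CPM, was a Low Drinker library, and without the 5 libraries the difference was -0.41 with an adjusted p of 0.258. Fxyd6, Tmem25 and Arhgap20 were the most abundant in this list, with line differences of -0.07 ± 0.08, -0.05 ± 0.09 and 0.12 ± 0.06, none of them called.

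In the list of immune genes 2 of 12 tested members were higher and 0 lower, Cd276 and Nnmt, a methyltransferase of nicotinamide that is not confined to immune cells. Nnmt had medians of 0.571 and 0.326 CPM and a line difference of 0.62 ± 0.19 with an edgeR adjusted p of 0.0472, which became 0.0554 without the filter on low counts. Bcl9l, Zbtb16 and Pml, transcriptional regulators with wider roles, had line differences of 0.15 ± 0.06, -0.32 ± 0.20 and 0.09 ± 0.04 and were not called. Outside the lists, Pih1d2, which belongs to a family of assembly factors, ran from 1.13 to 3.80 CPM in High Drinker with a median of 2.10 and from 2.05 to 4.18 CPM in Low Drinker with a median of 3.05. The lower High Drinker mice stood clear of the other line, with 21 of 44 below the lowest Low Drinker mouse. The line difference was -0.48 ± 0.07 with an edgeR adjusted p of 5.04e-06, and Pih1d2 lies less than 1 Mb from Bco2, which differed in the other direction. Exons of Pih1d2 overlap those of Nkapd1 on the opposite strand, whose reads cannot be separated. Snupn, which carries small nuclear RNA particles into the nucleus, and Zpr1, a zinc finger protein, had line differences of -0.11 ± 0.03 and -0.09 ± 0.03 with edgeR adjusted p-values of 0.0295 and 0.0468. The call of Snupn was lost without the sheet set term. That of Zpr1 was lost in 3 of 8 alternatives: no filter, limma-voom, and without the 5 libraries, where its edgeR adjusted p was 0.199. The remaining called genes, taken up after their values were seen so that all 33 are given, were Gm5617 and the non-coding RNA D630033O11Rik. Gm5617 had medians of 2.30 and 3.20 CPM and a line difference of -0.55 ± 0.09 with an edgeR adjusted p of 7.23e-06, and D630033O11Rik had medians of 0.165 and 0.270 CPM and -0.63 ± 0.17 with an edgeR adjusted p of 0.0197.

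Composition of the dissected tissue varied widely. The summed level of 8 medium spiny neuron markers, all detected, ran from 435 to 10526 CPM in High Drinker and from 229 to 8991 CPM in Low Drinker, and 0 of the 8 were called. The sum of 5 markers of cortical glutamatergic neurons ran from 1552 to 5808 CPM in High Drinker and from 1580 to 6284 CPM in Low Drinker, with 0 of 5 called. In bulk tissue fewer cells of a type and less RNA per cell cannot be told apart. The median size of a gene's correlation with the medium spiny neuron score was 0.35 in High and 0.32 in Low Drinker over the 204 genes, 0.34 and 0.32 over all tested genes, and 0.29 and 0.28 over the 33 called genes. Bco2 had 0.57 and 0.01, Zw10 had -0.14 and -0.34, Alg9 had -0.13 and -0.22 and Nxpe4 had -0.04 and 0.09. Of the 33, Fxyd2 had the strongest correlation in High Drinker, 0.82 with 0.55 in Low Drinker, and Snupn the strongest in Low Drinker, 0.63 with 0.56 in High Drinker. The part of tissue composition in these line differences was not tested. With the first component of the residual expression values as a term, 42 of the 204 genes were called, the 33 among them. Line, sheet set and sex had been removed from those values, so this component could not take up a line difference. That the 33 stayed called therefore says nothing on composition. Without the 5 libraries 27 were called, 26 of the 33 among them. Shares of the genome under these settings are not given here, so a change across all genes cannot be told apart.

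Sex was a contrast that the choice of genes did not use. With edgeR 0 of the 204 genes were called between females and males, against 0.0996% over the genome, and 5 had an unadjusted p under 0.05, where 4.03% of the genome did. DESeq2 and limma-voom also called 0, with 6 and 5 genes at an unadjusted p under 0.05. The smallest p belonged to Wdr61, a component of the exosome cofactor complex Ski and of the Paf1 complex, at 31.9 ± 2.31 CPM (SD, 39 females) and 33.7 ± 1.93 CPM (SD, 45 males), with an edgeR adjusted p of 0.747. It overlaps an exon of Dnaja4 on the opposite strand and was chosen after its value was seen. The interaction of line and sex had 0 called genes in edgeR, DESeq2 and limma-voom, against 0% of the genome, with 8, 8 and 9 at an unadjusted p under 0.05, where 5.65% of the genome had one in edgeR. Variability, tested with limma on absolute deviations, had 0 called genes against 0% of the genome, with 6 at an unadjusted p under 0.05, where 3.66% of the genome did.

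Gm6166, a processed pseudogene (chr9:57483913-57484585), had the smallest variability p of the 204 genes, 5.61e-05 with a limma adjusted p of 0.240, and was chosen after its values were seen. Its levels fell in 2 ranges with no library between 0.440 and 5.29 CPM. In the lower range were 20 of 44 High Drinker and 2 of 40 Low Drinker libraries. In sheet set 1 these were 16 of 30 and 1 of 18, in set 2 they were 4 of 11 and 1 of 19, and in set 3 they were 0 of 3 in both lines. The next widest gap among the 204 genes was that of Nrg4, 0.42 against 3.32 on the log2 scale of CPM plus 0.1. The edgeR line difference of Gm6166 was -0.82 ± 0.35 with an adjusted p of 0.191, whereas limma-voom gave -1.94 with an adjusted p of 0.0115.
The last 300 bases of its annotated transcript are shown because the transcript is nearly that of Fabp5, a fatty acid binding protein gene on chromosome 3, with capitals at the 6 bases here that differ from Fabp5 or have no partner in it.
Gm6166 (chr9:57484072-57484371, plus strand, GENCODE transcript on GRCm38): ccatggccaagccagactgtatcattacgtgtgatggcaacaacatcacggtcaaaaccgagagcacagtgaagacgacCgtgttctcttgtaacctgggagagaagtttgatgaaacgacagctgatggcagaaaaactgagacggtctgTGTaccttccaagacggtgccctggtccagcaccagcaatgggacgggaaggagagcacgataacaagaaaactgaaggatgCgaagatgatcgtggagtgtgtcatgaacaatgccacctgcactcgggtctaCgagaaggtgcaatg
The alignment covered 409 bases at 98.29% identity, and how reads with several matches were counted is not stated in the labels or the table, so the count of Gm6166 is uncertain. Fabp5 itself stood at 49.9 ± 9.45 CPM (SD, n = 44) in High Drinker and 45.8 ± 8.71 CPM (SD, n = 40) in Low Drinker, a line difference of 0.09 ± 0.06 with an edgeR adjusted p of 0.431.

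**Figure D3:**
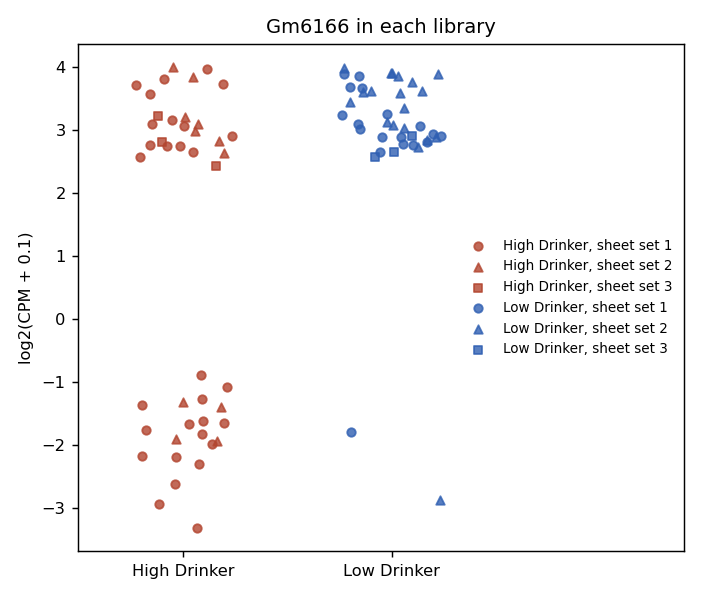
Level of Gm6166, as log2 of CPM plus 0.1 (vertical axis), in each library by line (horizontal axis), with the sheet set as the shape of the point. Values form an upper and a lower range in both lines, and 20 of 44 High Drinker but 2 of 40 Low Drinker libraries lie in the lower range.

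Correlations between neighbouring genes were taken within each line, on log2 CPM with sheet set and sex removed. The 204 tested genes form 203 pairs of neighbours, 12 of them with a gene between that was left out. The median Pearson r was 0.08 in both lines, against 0.13 in both over 17035 pairs of the genome. In High Drinker 63 pairs passed a permutation test at an adjusted p under 0.05, which is 31% against 33.7% of the genome, and 43 were positive and 20 negative, where 26% and 7.75% of the genome were. In Low Drinker 54 passed, 26.6% against 34.2%, and 40 were positive and 14 negative, where 26.3% and 7.84% of the genome were. The median r and these shares lay below those of the genome, apart from the negative pairs of High Drinker, 20 of 203, and this difference from the genome was not tested. In both lines 33 of the 203 pairs passed, all with the same sign in each. Over the genome 3753 of 17035 pairs passed in both lines, 3750 of them with the same sign. With the first component removed, 40 pairs passed in High and 54 in Low Drinker. The share of the genome under that setting is not given here.

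Of pairs of established symbols whose exons do not overlap, those with high mean r over both lines included Man2c1 with Neil1, Exph5 with Kdelc2, Atm with Npat and Tbcel with Arhgef12. Man2c1 and Neil1, a DNA glycosylase gene, point towards each other. Their r was 0.84 in High Drinker (rho 0.78) and 0.72 in Low Drinker (rho 0.61), each with the smallest permutation p that 100000 resamples can give, 1e-05, and adjusted p-values of 0.000106 and 0.000113. Without the 2 libraries farthest from the median it was 0.81 and 0.61, and within sheet sets 1 and 2 it was 0.84 and 0.88 in High and 0.71 and 0.73 in Low Drinker. Atm, a kinase gene of the response to DNA breaks, and Npat, which drives histone genes, start 307 bases apart and point away from each other. Their r was 0.71 in High Drinker (rho 0.71) and 0.79 in Low Drinker (rho 0.72), with permutation p-values of 1e-05 and adjusted p-values of 0.000106 and 0.000113. It rose to 0.74 and 0.90 with the first component removed. For Exph5 and Kdelc2, r was 0.77 in High and 0.78 in Low Drinker and fell to 0.29 and 0.35 with the first component removed. Tbcel and Arhgef12, with a gene between them that was left out, had 0.64 and 0.84, and 0.63 and 0.83 with the component removed.

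The pairs of established symbols without exon overlap that had the lowest mean r were negative in both lines. Gm16536 and Rnf214, named after their values were seen, were lower still, with r of -0.77 in High and -0.80 in Low Drinker. Sidt2 and Pafah1b2 had r of -0.58 in High Drinker (rho -0.61, permutation p 5e-05, adjusted p 0.0004) and -0.73 in Low Drinker (rho -0.71, permutation p 1e-05, adjusted p 0.000113). Nxpe4 and Rexo2, which differ between the lines in opposite directions, were also opposed within each line. Their r was -0.45 in High Drinker (rho -0.40, permutation p 0.00219, adjusted p 0.00958) and -0.61 in Low Drinker (rho -0.55, permutation p 3e-05, adjusted p 0.000272). Without the 2 farthest libraries it was -0.38 and -0.52, and it lay between -0.61 and -0.39 within the 2 larger sheet sets of each line. Zbtb16 and Usp28, with a gene between them that was left out, had -0.59 and -0.42. They had -0.74 and -0.59 within sheet set 1, and -0.10 and -0.06 within sheet set 2, which holds 11 High and 19 Low Drinker libraries. Whether the relation differs between the sets was not tested. With the first component removed Zbtb16 and Usp28 had -0.27 and 0.03.

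**Figure D4:**
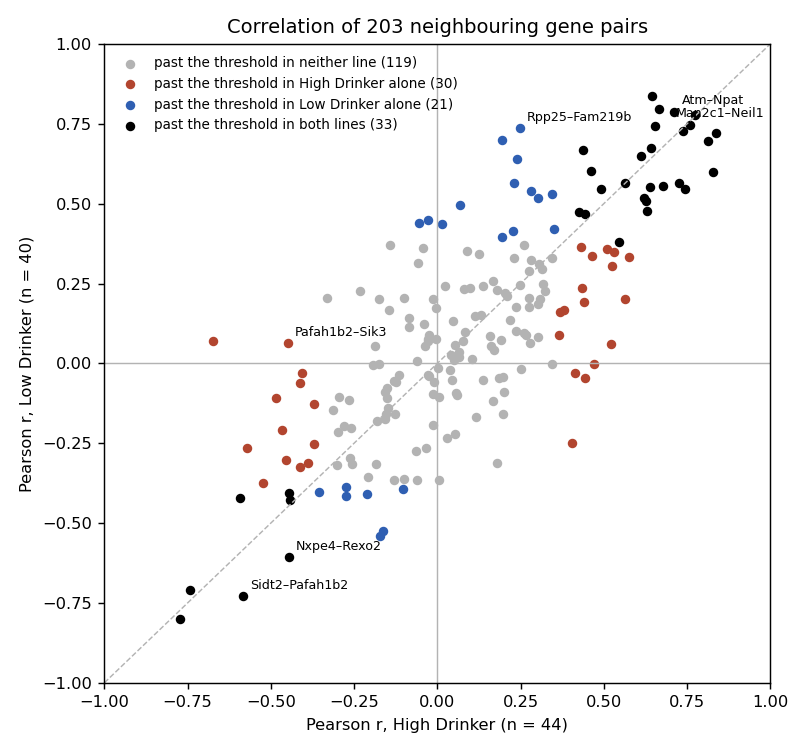
Pearson r of 203 neighbouring pairs in High Drinker (horizontal axis) and Low Drinker (vertical axis), coloured by the line in which the pair passed the permutation test. The 33 pairs that passed in both lines lie in the lower left and upper right corners, with Atm and Npat among the highest and Sidt2 and Pafah1b2 among the lowest.

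The difference of r between the lines was tested by permuting line labels within sex and sheet set. After adjustment 0 of 203 pairs passed, against 0% of the genome, and 15 had an unadjusted p under 0.05, or 7.39%, where 7.23% of the genome did. Rpp25 and Fam219b, with a gene between them that was left out, had r of 0.25 in High and 0.74 in Low Drinker. Their permutation p was 0.00547 and the adjusted p 0.558. Pafah1b2 and Sik3 had -0.45 and 0.06 (permutation p 0.00976, adjusted p 0.591), and Gldn and Dmxl2 had 0.47 and -0.001 (permutation p 0.0120, adjusted p 0.596). These 3 pairs had the smallest p among pairs of established symbols whose exons do not overlap. Over all 203 pairs Gm5617 and Nnmt, named after their values were seen, had the smallest, with r of -0.68 in High and 0.07 in Low Drinker, a permutation p of 0.00109 and an adjusted p of 0.518. None of these 4 pairs passed.

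Genes most like each of the 4 named first were sought among the 203 others by Pearson r over 84 animals after removal of line, sheet set and sex. These are descriptions of the highest values, and the animals share dissection and depth. For Bco2 they were 1110032A03Rik with r of 0.69, Fxyd2 with 0.63 and Nrg4 with 0.62, the last 4.69 Mb away. Bco2 with Nrg4 had 0.47 in High and 0.79 in Low Drinker, and 0.64 with the first component removed. For Zw10 they were 1700063D05Rik with 0.61, Nrg4 with 0.60 and 1110032A03Rik with 0.56, where 1700063D05Rik lies 7.85 Mb away. For Alg9 they were Sc5d with 0.55 at 8.52 Mb, Dlat with 0.54 at 0.14 Mb and 1700063D05Rik with 0.50. For Nxpe4 they were Nrg4 with 0.53 at 6.86 Mb, Cd276 with 0.48 at 10.2 Mb and Zw10 with 0.47 at 0.69 Mb. All of these genes were called higher in High Drinker, as were 17 of the 204 tested genes. The interval was chosen by the line difference, so nothing is read from this. Without the 2 animals farthest from the median the 12 values lay between 0.41 and 0.67. Among the 4 themselves, Bco2 and Zw10 had 0.40 in High and 0.66 in Low Drinker, and Zw10 and Nxpe4 had 0.45 and 0.49. Alg9 and Nxpe4 had -0.21 and 0.47, a difference that was not tested.

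Over all 525 pairs of called genes without shared exons, the sign of r within a line was compared with the sign that their line differences would give, positive for genes that differ in 1 direction and negative for opposed genes. It matched in 73.5% of pairs in High and 75.6% in Low Drinker. Called genes elsewhere, in pairs on different chromosomes, matched in 69.9% and 71.9%, so the overall share was near that of called genes in general. By distance, pairs under 1 Mb apart matched in 82.2% and 77.8%, pairs 1 to 2 Mb apart in 89.5% and 81.6%, and pairs 10 to 20 Mb apart in 55.9% and 63.6%. Pairs in which neither gene was called matched in 51.9% and 54.6%. With the first component removed the shares were 91.1% and 84.4% under 1 Mb and 63.6% and 65.3% from 10 to 20 Mb. Pairs share genes and animals, so these shares are given without a test. The signs are those of line differences by which the interval was chosen. Called genes elsewhere were not taken by distance, so whether the fall with distance is particular to this interval was not tested.

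**Figure D5:**
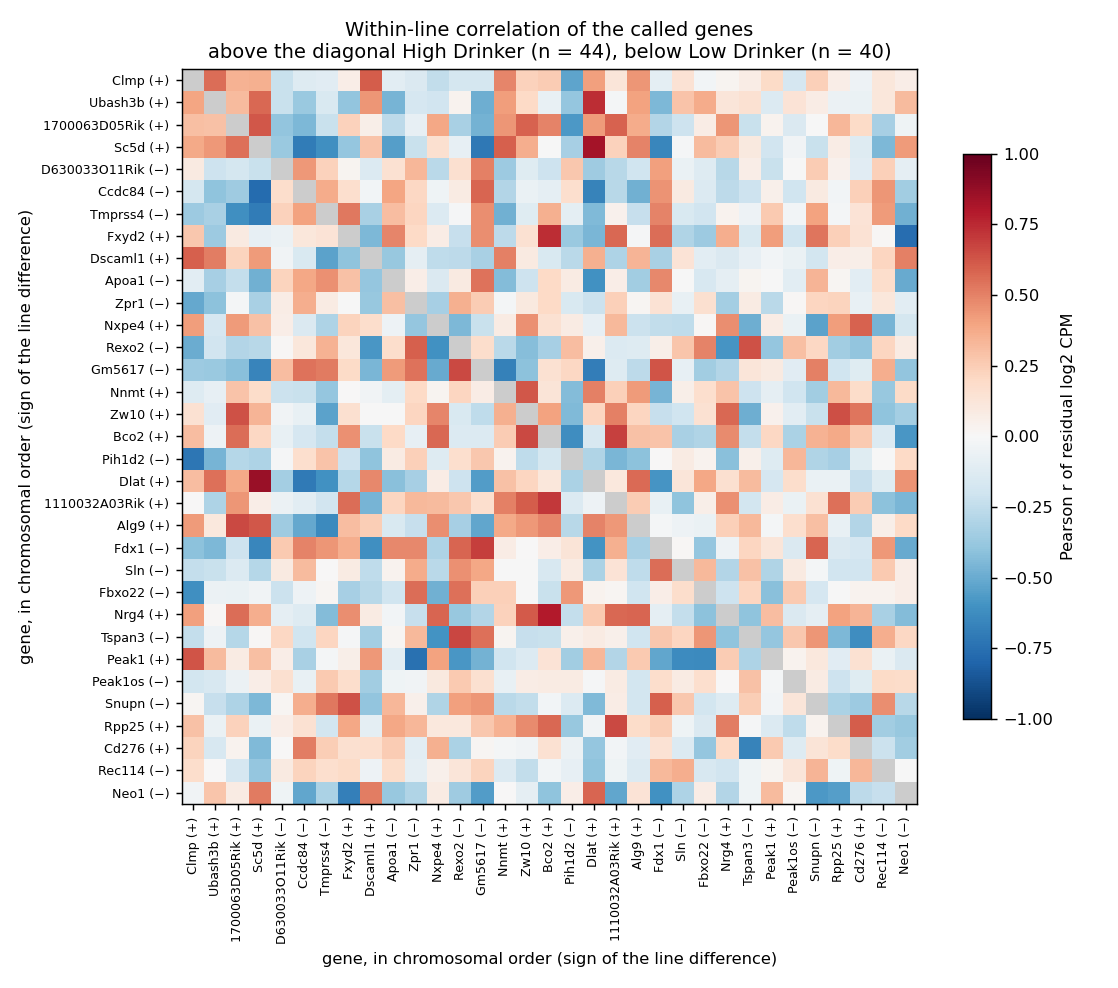
Pearson r of residual log2 CPM between the 33 called genes in chromosomal order on both axes, High Drinker above the diagonal and Low Drinker below, with the sign of each line difference beside the symbol. Bco2, 1110032A03Rik, Zw10 and Nrg4, all higher in High Drinker, are positively correlated in both lines, and Nxpe4 and Rexo2, which differ in opposite directions, are negatively correlated in both.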

How the data were processed

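The deposited table holds unnormalized read counts of each gene in each of 84 animals, with exon positions, strand and gene length. The submitters' processing notes name mm10 as the build and FastQC, STAR, Subread's featureCounts and edgeR as tools. Tool versions, and how strand and reads with several matches were handled, are not given there. Per the labels' protocols, RNA was amplified with an Ovation kit before library preparation, and 6 libraries shared a lane of single-end reads of 100 bp. Duplicate molecules cannot be told from independent ones. The table has 0 entries that name no gene, and 0 columns of other samples.

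Groups and sex came from the labels. The members, gene lists and tests were chosen with earlier results of these data known. Counts of the whole table were tested with edgeR 4.0.16 in R 4.3.3 (TMM, filterByExpr, quasi-likelihood F-test, terms for sheet set, sex and line). That the 3 sheet sets are batches is inferred from the title numbers. Variability used limma 3.58.1 on the absolute deviation of each log2 CPM value (prior count 2) from its group median. CPM and FPKM were computed from the deposited counts and gene lengths. Neighbour correlations used a two-sided permutation test with 100000 resamples and Benjamini-Hochberg adjustment over all 17035 pairs. Scripts were tested on simulated data.

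Genes named by rule had an established symbol and 1 CPM or more: up to 15 called genes per direction, up to 3 abundant members and all called members of each of 10 role lists, and the pairs given. Genes under 1 CPM and clone names were added after their values were seen unless a list holds them. Some results that this rule names are not reported here. Alternatives were RLE scaling, DESeq2 1.42.0, limma-voom, no filter, no sheet set term, 5 surrogate variables (sva 3.50.0), the first component as a term, 1 sheet set or sex, and leaving out 5 libraries (1 High and 4 Low Drinker) that stood apart earlier. Overlaps of exons came from the deposited positions. Promoters came from RefSeq and transcripts from GENCODE vM21, aligned with blastn 2.17.0. Python 3.11.15 with numpy 2.4.6, scipy 1.17.1, pandas 2.3.3 and matplotlib 3.10.9 was used elsewhere.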

Additional observations from a re-analysis of the deposited data

How the results depend on the processing

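Against 33 called genes, the count was 31 to 42 with RLE scaling, DESeq2, limma-voom, no filter, no sheet set term or the first component as a term, and 27 without the 5 libraries. It was 58 with 5 surrogate variables, where 14.5% of the genome was called, 10 and 9 within sheet sets 1 and 2, 8 in females and 13 in males, where fewer samples were fitted. Among the alternatives, shares of the genome are given for the surrogate variables alone. The other counts, of genes or neighbour pairs, cannot be set against a change across the genome. Of the 33 genes, 22 were called in all 8 alternatives over both lines, sexes and sets, and no line difference changed sign. The first component was taken after line had been removed, so as a term it could not take up a line difference. The 11 lost in at least 1 of them were Apoa1, Dscaml1, Fbxo22, Fdx1, Nnmt, Peak1, Peak1os, Sln, Snupn, Ubash3b and Zpr1. For sex, 30 genes were called with 5 surrogate variables, 7 higher and 23 lower in males, where 21% of the genome was called, 10.8% higher and 10.2% lower, and 0 in the 7 other alternatives; the cause was not tested. Interaction, variability and the line difference in neighbour correlation had 0 calls in each alternative. Neighbour pairs that passed in High Drinker numbered 40 with the first component removed, and 50 to 64 otherwise; in Low Drinker they numbered 38 to 57. No paired analysis was possible because the labels give no replicate numbers that the lines share. Genes under 1 CPM rest on few reads a library, which limits their precision.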
